A study of Arabidopsis thaliana with 12 samples.

Results

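GLDH, PRXIIE, FTRB and GLX2-1 are 4 Arabidopsis thaliana genes for enzymes that make ascorbate, reduce peroxides, pass electrons to thiols or belong to the glyoxalase family. They were taken from an expression array of 3439 probes, of which 692 were annotated to a single gene. GLDH (AT3G47930) was read by probe 592, PRXIIE (AT3G52960) by probe 1966, FTRB (AT2G04700) by probe 3436 and GLX2-1 (AT2G43430) by probe 1753, so each gene rested on 1 probe. The genes were chosen on their known roles and with their ascorbate against water differences in all 12 samples in view. Those differences are therefore a description and carry no test.

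All samples were wild type of the ecotype Columbia 0. The 6 ascorbate samples had 4 h in water and then 4 h in 25 mM ascorbate at pH 5.5. The 6 water samples had 8 h in water, the same total time. The labels give no age, organ or pH of the water, and they name no group that was moved to a solution without ascorbate, so ascorbate, pH, solute load and transfer cannot be told apart. They number the samples 1 to 6 in each group without saying what separates the numbers, so the spread between them may be technical. Of 17 marker loci for leaf, root and senescence, 0 had a single-gene probe, and the organ could not be checked. In such bulk RNA, fewer cells of a type and less RNA per cell cannot be told apart.

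Ascorbate (vitamin C) is a water-soluble reductant of plant cells that is used to remove hydrogen peroxide. Plastids also remove peroxides with peroxiredoxins, whose cysteine thiols are oxidised by the peroxide and then reduced by thioredoxins and glutaredoxins. Thioredoxins of the plastid stroma obtain electrons from photosynthesis through ferredoxin. Glyoxalases convert methylglyoxal, a toxic by-product of sugar metabolism, to lactate with the help of glutathione.

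The deposited values were relative intensities on a linear scale, with the top of the scale at or near 100 and with 11.5% to 14.2% of the probes of an array listed at 0. Their sum per array lay between 3054 and 3562. Ascorbate arrays 1 and 2 had the lowest medians, 0.252 and 0.259. The ratio of array medians, ascorbate over water, was 0.536 and 0.546 for numbers 1 and 2 and 0.857 to 0.945 for numbers 3 to 6. The genes are therefore given on 3 scales: the deposited intensity, the percentile rank of the probe among the 3439 probes of its own array, and a quantile-normalized log2 intensity. The rank does not change when all intensities of an array are multiplied by a constant. Levels of different probes were not set against each other. Precision is limited by having 6 arrays in each group.

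GLX2-1 had the widest gap between the treatments of the 4 genes. On the deposited scale it lay between 0 and 0.181 in ascorbate and between 0.198 and 0.651 in water. GLDH averaged 0.267 ± 0.131 in ascorbate and 0.436 ± 0.136 in water, and PRXIIE 0.246 ± 0.158 in ascorbate and 0.476 ± 0.0747 in water (SD, n = 6 each). FTRB averaged 0.139 ± 0.0612 in ascorbate and 0.129 ± 0.0756 in water (SD, n = 6 each), a difference well inside the spread of either group.

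**Figure D1:**
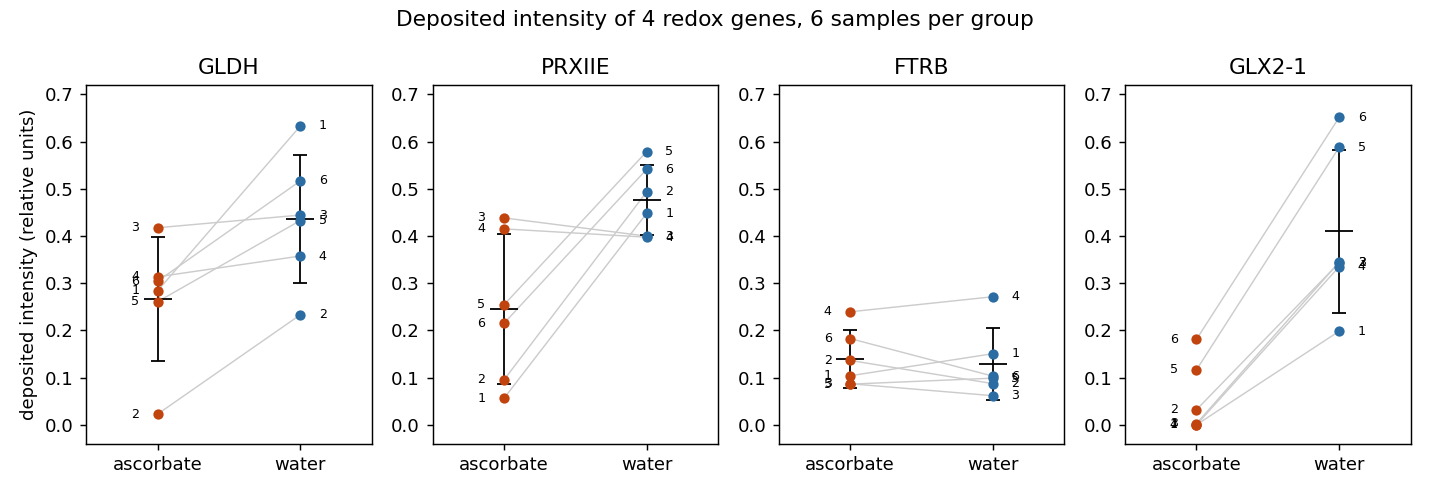
Deposited intensity (relative units, linear axis) of the 4 genes in the 6 ascorbate samples (orange) and the 6 water samples (blue). Small digits are replicate numbers, grey lines join equal numbers, and black bars show mean ± SD, left out for GLX2-1 in ascorbate, where 2 samples were listed at 0. The GLX2-1 groups do not overlap, with an ascorbate maximum of 0.181 and a water minimum of 0.198, while the other 3 genes overlap.

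GLDH encodes L-galactono-1,4-lactone dehydrogenase, the mitochondrial enzyme that forms ascorbate from its immediate precursor. Its deposited intensities in ascorbate samples 1 to 6 were 0.284, 0.0227, 0.417, 0.314, 0.261 and 0.304. In water samples 1 to 6 they were 0.633, 0.233, 0.444, 0.358, 0.433 and 0.517. The ascorbate sample was the lower one at each of the 6 numbers, and number 2 was the lowest sample of both groups. The groups overlapped, since ascorbate samples 1, 3, 4, 5 and 6 lay above water sample 2.

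The share of all 3266 tested probes that were lower in ascorbate at all 6 numbers was 22.8% on deposited intensities and 14.1% by percentile rank. GLDH and GLX2-1 were in both of these sets, and PRXIIE and FTRB in neither. The percentile rank of GLDH averaged 39.6 ± 13.6 in ascorbate and 47.8 ± 11.6 in water (SD, n = 6 each). The rank difference was small at numbers 3 and 4, at -0.67 and -1.95 points, and between -9.01 and -14.1 points at the other numbers. At number 3 the gene's deposited ratio of ascorbate to water was 0.940, beside a ratio of array medians of 0.939. At number 2 the GLDH ratio was 0.0975 and the ratio of array medians 0.546.

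On the normalized log2 scale GLDH was at -1.98 ± 1.01 in ascorbate and -1.47 ± 0.53 in water (SD, n = 6 each). The log2 difference, ascorbate minus water, was -0.52 ± 0.44 (SE of the limma fit). With a replicate block, which removes differences between numbers that both groups share, the SE was 0.20 around the same difference. Without ascorbate sample 2 the difference was -0.13. Without number 2 of both groups, chosen after the data were seen, it was -0.32 ± 0.20 (SE without a block). On the 3 scales used, GLDH was lower in ascorbate at every number, but at number 3 the normalized values were -1.22 and -1.19. Its ratio of ascorbate to water lay under that of the array medians at 5 of 6 numbers. The size of the difference rested in part on number 2.

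PRXIIE encodes a type II peroxiredoxin of the plastid stroma, which reduces hydrogen peroxide and organic peroxides. Its deposited intensities in ascorbate samples 1 to 6 were 0.0559, 0.0950, 0.438, 0.415, 0.254 and 0.215. In water samples 1 to 6 they were 0.448, 0.493, 0.400, 0.397, 0.579 and 0.541. PRXIIE was lower in ascorbate at numbers 1, 2, 5 and 6 and slightly higher at numbers 3 and 4. Ascorbate samples 3 and 4 thus lay within the water range and the other 4 ascorbate samples below it.

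By percentile rank the pattern was the same. The rank difference of PRXIIE, ascorbate minus water, was -26.1, -24.2, -25.9 and -26.3 points at numbers 1, 2, 5 and 6, and 5.67 and 3.34 points at numbers 3 and 4. Its mean rank was 36.3 ± 13.9 in ascorbate and 51.9 ± 4.02 in water (SD, n = 6 each). The 6 water ranks spread over far less than the ascorbate ranks. On deposited intensities the coefficient of variation of PRXIIE was 64.5% in ascorbate and 15.7% in water, where the median over the other single-gene probes tested was 33.2% in ascorbate and 19.0% in water.

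The spread of PRXIIE in ascorbate lay between, not inside, consecutive numbers. Numbers 1 and 2, 3 and 4, and 5 and 6 averaged 0.0755, 0.427 and 0.234 in ascorbate, a range of 0.351, and the largest gap inside these sets was 0.0392. For GLDH the order was the other way round. Its largest gap inside consecutive numbers was 0.261 in ascorbate and 0.400 in water, and its consecutive means spanned 0.212 in ascorbate and 0.0738 in water. Over all tested probes, deviations from the group means correlated between numbers 5 and 6 at 0.74 in ascorbate and 0.73 in water. Between the other consecutive numbers they correlated at 0.088 to 0.30. What consecutive numbers share is not given in the labels, and the cause of this likeness was not tested.

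On the normalized log2 scale PRXIIE was at -2.05 ± 0.72 in ascorbate and -1.27 ± 0.16 in water (SD, n = 6 each). The log2 difference was -0.79 ± 0.29 (SE, 0.28 with the replicate block and 0.41 with consecutive numbers averaged). Leaving out numbers 1 and 2 of both groups gave -0.47, and leaving out numbers 3 and 4, chosen after the data were seen, gave -1.27. The size of the PRXIIE difference therefore depended on which numbers were used.

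**Figure D2:**
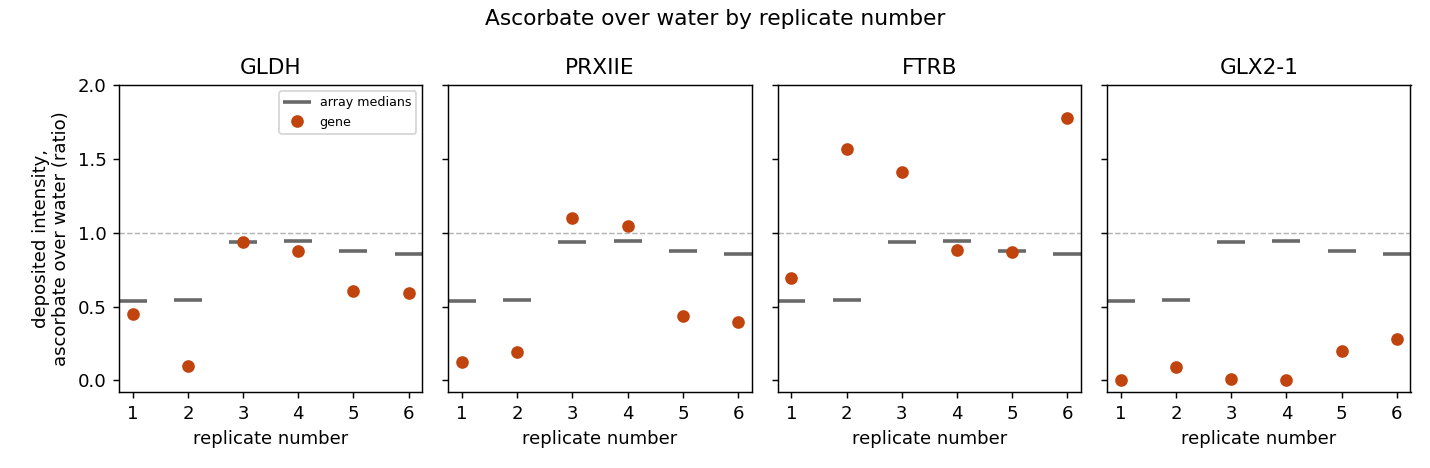
Ratio of deposited intensity, ascorbate over water (linear axis), at each replicate number for the 4 genes (orange points), with the ratio of the 2 array medians at that number (grey bars) and a dashed line at equality. GLX2-1 lies below the array medians at all 6 numbers, GLDH at 5, PRXIIE at 4 and FTRB at 2. FTRB also lies on both sides of equality.

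FTRB encodes the catalytic subunit of ferredoxin-thioredoxin reductase, an iron-sulfur enzyme that passes electrons from ferredoxin to plastid thioredoxins. Its deposited intensities in ascorbate samples 1 to 6 were 0.104, 0.136, 0.0870, 0.239, 0.0861 and 0.183. In water samples 1 to 6 they were 0.151, 0.0872, 0.0616, 0.271, 0.0988 and 0.103. FTRB was higher in ascorbate at numbers 2, 3 and 6 and lower at numbers 1, 4 and 5. Number 4 was the highest sample of both groups, and the ascorbate values lay inside the range of the water values.

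The relative position of FTRB gave a different picture from its intensity. Its percentile rank averaged 26.2 ± 7.67 in ascorbate and 19.9 ± 8.26 in water (SD, n = 6 each), and it was higher in ascorbate at every number but 4. At number 1 the deposited intensity was lower in ascorbate, by a ratio of 0.690, but the array medians had a lower ratio still, 0.536, and the rank was 29.4 in ascorbate and 20.6 in water. On the normalized log2 scale the gene was at -2.80 ± 0.89 in ascorbate and -3.83 ± 1.10 in water (SD, n = 6 each).

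The normalized log2 difference of FTRB was 1.03 ± 0.55 (SE, 0.32 with the replicate block and 0.56 with consecutive numbers averaged). It was 0.18 ± 0.37 on deposited intensities without scaling and 0.57 ± 0.38 after median centring of the arrays. In water samples 5 and 6 the gene lay at 0.0988 and 0.103, close above the lowest positive values of those arrays, whose 1st percentile was 0.0451 and 0.0545. Normalization placed these samples at -4.84 and -4.71, the lowest 2 values of the gene. Without numbers 5 and 6 of both groups, chosen after the data were seen, the normalized difference was 1.05 ± 0.65 (SE). By consecutive numbers it was 1.49 at 1 and 2, 0.33 at 3 and 4, and 1.27 at 5 and 6. The log2 differences as deposited were 0.05, 0.16 and 0.31 in the same order. The FTRB difference on the normalized scale was not seen at that size in the intensities as deposited, and the cause was not tested.

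**Figure D3:**
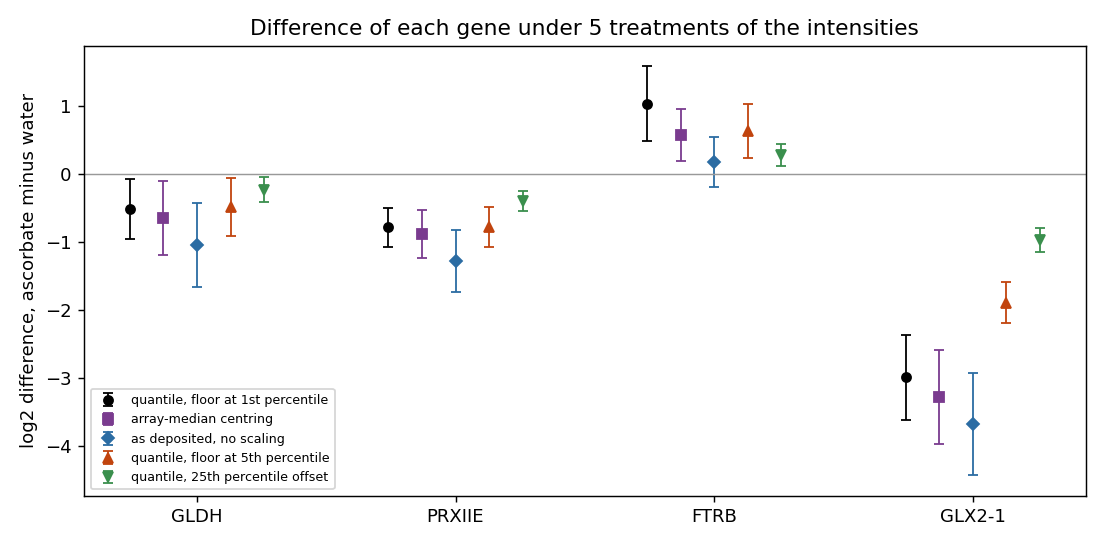
Log2 difference, ascorbate minus water, with its SE for the 4 genes under 5 treatments of the intensities. Each gene keeps its sign, while FTRB ranges from 0.18 to 1.03 and GLX2-1 from -3.68 to -0.97.

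GLX2-1 is named as a glyoxalase II, a family of metal-binding hydrolases that releases lactate from its glutathione conjugate. The purified Arabidopsis GLX2-1 protein is known to bind metals but to lack glyoxalase II activity, so its role in the plant is less clear than its name. Its deposited intensities in ascorbate samples 1 to 6 were 0, 0.0319, 0.00256, 0, 0.116 and 0.181. In water samples 1 to 6 they were 0.198, 0.343, 0.345, 0.335, 0.588 and 0.651. Every ascorbate value lay below every water value, as for 9.09% of the 3266 tested probes. Since the gene had been picked for this difference, nothing further is read from that share.

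GLX2-1 was listed at 0 in ascorbate samples 1 and 4, and ascorbate sample 3 lay under the floor of its array, the 1st percentile of its positive values. An intensity of 0 may be a failed reading rather than an absent transcript. The rank of the probe lay between 6.91 and 24.5 in ascorbate and between 24.9 and 63.5 in water, where probes at 0 share the middle rank of all probes at 0 on that array. The rank difference, ascorbate minus water, was -18.0 points at number 1, the smallest of the 6 in size, and -40.8 points at number 5, the largest. The gap was also present at numbers 3 and 4, where the ranks of PRXIIE and GLDH differed by 5.67 points or less between the treatments.

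For GLX2-1, numbers 5 and 6 were the highest in ascorbate and in water, and the 6 deposited values of ascorbate and water correlated at r = 0.94. That value describes 6 points whose equal numbers may share handling. The same r was 0.76 for FTRB, 0.60 for GLDH and -0.45 for PRXIIE. Over the percentile ranks r was 0.91 for GLDH, 0.79 for GLX2-1, 0.61 for FTRB and -0.29 for PRXIIE.

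On the normalized log2 scale ascorbate samples 2, 5 and 6 were at -3.60, -3.49 and -2.70, and the other 3 ascorbate samples were set to the floor of -5.92. The water samples lay between -2.66 and -0.83. With those 3 samples at the floor, the log2 difference was -3.00 ± 0.63 (SE). The SE was 0.42 with the replicate block and 0.79 with consecutive numbers averaged. The size of the difference depends on how values near 0 are treated. It was -1.90 ± 0.30 with the floor at the 5th percentile and -0.97 ± 0.18 with an offset of the 25th percentile added before log2, which shrinks differences of dim probes by construction.

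**Figure D4:**
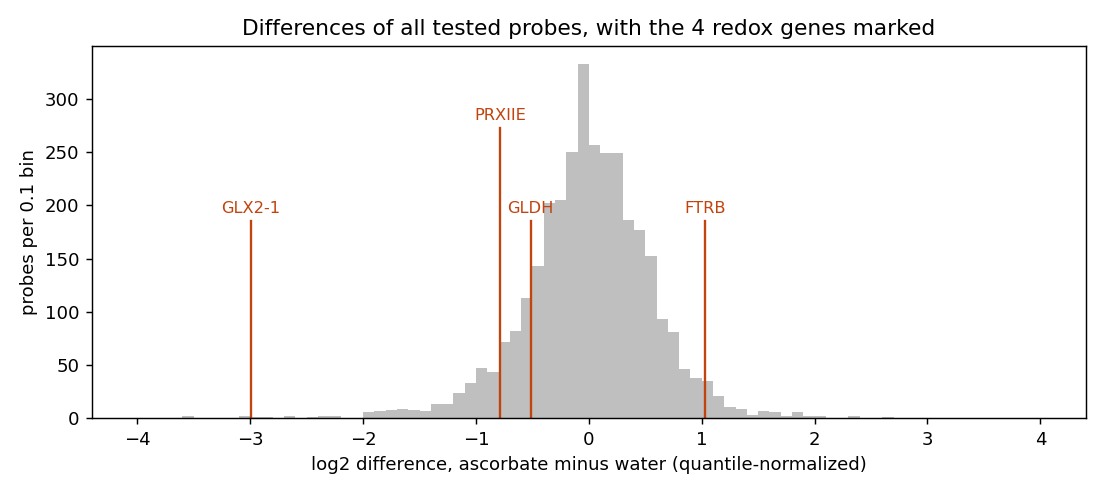
Number of probes per 0.1 bin of normalized log2 difference, ascorbate minus water, for all 3266 tested probes, with lines at the 4 redox genes. GLX2-1 lies at -3.00, PRXIIE at -0.79 and GLDH at -0.52, and FTRB lies at 1.03.

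The 4 genes did not move as a unit from sample to sample. Over the normalized log2 values of the 12 arrays, r between pairs of these genes lay between -0.56 for FTRB with GLX2-1 and 0.39 for PRXIIE with GLX2-1. With group means removed, r lay between -0.48 for GLDH with GLX2-1 and 0.24 for GLDH with PRXIIE. On this scale 3 ascorbate values of GLX2-1 were tied at the floor. By percentile rank over the 12 arrays, r lay between -0.50 for FTRB with GLX2-1 and 0.57 for PRXIIE with GLX2-1. These are descriptions over 12 points that share arrays and, for the log2 values, normalization.

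Among 546 single-gene probes above 0 on all arrays, the probe most like GLDH over the 12 normalized values was AT4G00870, a bHLH transcription factor gene, at r = 0.95. AT5G04600 followed at r = 0.92 and AT1G35340 at r = 0.87. The r of GLDH with AT1G35340 was 0.76 with the 25th percentile offset and 0.66 by percentile rank. The probes most like PRXIIE were those of AGL103, a MADS-box gene, at r = 0.96, AT3G45770 at 0.93 and AT1G18060 at 0.93. After median centring the r of PRXIIE with AT1G18060 was 0.46. With group means removed, the 6 normalized values for GLDH and PRXIIE lay between 0.90 and 0.95. The probes were picked by their r over the same 12 arrays, so nothing further is read from these values.

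For FTRB the 3 most similar probes were those of SIS, a salt-induced serine-rich protein gene, at r = 0.88, OSB1, which encodes an organellar single-stranded DNA-binding protein, at 0.85, and AT5G36470 at 0.82. On intensities as deposited these values were 0.61, 0.54 and 0.48. For GLX2-1 they were LAS, a GRAS-family transcription factor gene, at r = 0.93, AT5G10920 at 0.90 and the protein phosphatase 2C gene AT4G33500 at 0.90. With group means removed, the GLX2-1 values were 0.76, 0.79 and 0.73, and after median centring the r of GLX2-1 with AT5G10920 was 0.40.

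The rest of the redox network was thinly covered. Of 128 loci in 7 lists of ascorbate synthesis, ascorbate and glutathione recycling, thiol peroxidases, the thioredoxin system, thioredoxin-regulated enzymes, glyoxalases, and superoxide dismutases with catalases, 6 besides the 4 genes had a single-gene probe. SBPASE, a Calvin cycle enzyme that thioredoxin activates, was listed at 0 on all 12 arrays. Of the other 5, 0 passed limma's test of ascorbate against water after Benjamini-Hochberg adjustment over all 3266 probes, 0 had an unadjusted p under 0.05, and 0 passed with the replicate number as a block. Over all probes, 17.1% passed, 9.74% higher and 7.38% lower in ascorbate. The median log2 difference was 0.17 over the 5 genes and 0.001 over all tested probes.

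SRX encodes sulfiredoxin, which repairs over-oxidised peroxiredoxins of the plastid. Its deposited intensities in ascorbate samples 1 to 6 were 0.113, 0.0466, 0.388, 0.322, 0.402 and 0.370, and in water samples they lay between 0.323 and 0.378. Ascorbate samples 1 and 2 were low, as for PRXIIE, but samples 5 and 6 were not. The log2 difference of SRX was -0.09 ± 0.30 (SE, limma adjusted p 0.88). It was 0.30 without numbers 1 and 2, and its sign turned.

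NTRC, a plastid NADPH-dependent thioredoxin reductase, is the other route by which plastid thiols are reduced. Its deposited intensities had a median of 0.414 in ascorbate (0.163 to 0.512) and 0.449 in water (0.368 to 0.680), and its log2 difference was -0.10 ± 0.19 (SE, limma adjusted p 0.78). Of the enzymes that thioredoxin activates, PRK, phosphoribulokinase of the Calvin cycle, had a log2 difference of 0.24 ± 0.24 (SE, limma adjusted p 0.53). NADP-MDH, a plastid malate dehydrogenase, had one of 0.17 ± 0.30 (SE, limma adjusted p 0.75), which was -0.39 on intensities as deposited. Its deposited intensities in ascorbate samples 1 to 6 were 0.0851, 0.124, 0.504, 0.548, 0.317 and 0.305. In water samples they lay between 0.269 and 0.457. Ascorbate samples 1 and 2 were the lowest and 3 and 4 the highest, as for PRXIIE, but 5 and 6 lay above water samples 5 and 6. Without numbers 1 and 2 the NADP-MDH difference was 0.64 ± 0.29 (SE, limma adjusted p 0.20).

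CCS encodes the copper chaperone of copper/zinc superoxide dismutase. Its deposited intensities in ascorbate samples 1 to 6 were 0.113, 0.223, 0.285, 0.365, 0.255 and 0.264. In water samples 1 to 6 they were 0.0696, 0.245, 0.256, 0.253, 0.214 and 0.251. CCS was higher in ascorbate at 5 of 6 numbers, and the groups overlapped. Its log2 difference was 0.86 ± 0.40 (SE, limma adjusted p 0.17, and 0.079 with the replicate block). It was 0.48 without water sample 1 and 0.26 on intensities as deposited.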

How the data were processed

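Total RNA of 12 samples was read in 1 channel each. The table deposited by the authors holds a linear intensity for each probe. How the arrays were scanned, background-corrected and scaled is not stated in the labels. Samples were grouped and numbered by their titles.

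A floor was set for each array at percentile 1 of its positive intensities, zeros and lower values were raised to it, and the log2 values were quantile normalized. The normalized floor was -5.92. Probes listed at 0 throughout, 173 in number, were not tested. Ascorbate was compared with water with limma 3.58.1 (R 4.3.3; lmFit, then eBayes), two-sided, with Benjamini-Hochberg adjustment over 3266 probes and a threshold of 0.05. The fit was tested on simulated data with independent normal noise on each array. The simulation had no pairing by number and no likeness of consecutive numbers, so it does not cover those features. A percentile rank is the middle rank of a probe among all probes of its array.

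Probes were named from a platform annotation table through the RefSeq gene table of TAIR10.1. A locus was found for 691 of 692 single-gene probes, 870 probes had several genes and 1877 none. No array build was named, so coordinates were not used.

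The genes and lists were chosen with earlier results of these data known. The text names the 4 genes, the list genes with a single-gene probe, and, for each of the 4, the 3 probes with the highest Pearson r. Marker lists of leaf, root and senescence had 0 measured loci.

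Deviations from the group means of samples with equal numbers correlated at 0.35 to 0.56 over all probes, over the limit of 0.1. The numbers of the labels thus pair the samples. The main fit did not use this pairing, and the replicate block did. Alternatives varied the normalization, the floor, the filter, the replicate block and the samples used.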

Additional observations from a re-analysis of the deposited data

Results flagged for a closer look

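In 2 of 18 groups of 6 normalized values, 1 sample lay far from the other 5 by Dixon's criterion, which flags about 5% of groups by chance. For GLDH, ascorbate sample 2 was at -3.91 on the log2 scale, against -2.09 to -1.22 in the other ascorbate samples. For CCS, water sample 1 was at -4.65, against -2.74 to -2.03 in the other water samples.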

How the results depend on the processing

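The log2 differences of GLDH, PRXIIE, FTRB and GLX2-1 kept their sign in all 22 alternatives run on each. The genes were picked with these differences in view and 12 alternatives left out only 1 sample, so kept signs add little. The replicate block and the averaging of consecutive numbers leave the difference unchanged by construction, so their sign adds nothing. No alternative used numbers 3 and 4 alone, where the normalized PRXIIE difference was 0.18. For FTRB the sign as deposited rested on 0.18 ± 0.37 (SE). Leaving out 1 sample at a time gave -0.72 to -0.13 for GLDH, -0.97 to -0.59 for PRXIIE, 0.82 to 1.41 for FTRB and -3.41 to -2.68 for GLX2-1. GLX2-1 was -0.97 with the 25th percentile offset. On intensities as deposited GLDH was -1.05 and PRXIIE -1.28, on a scale where the median of all tested probes was -0.35; it was 0.04 after centring. Without numbers 1 and 2, GLDH was -0.30.

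The count of probes called was 559, and 796 with the replicate block, which changed no call of a list gene. It was 1 with consecutive numbers averaged, 3 against 3, and, chosen after the data were seen, 261 without numbers 5 and 6. Leaving out 1 sample gave 396 to 584. Of the 559, 318 were higher in ascorbate; as deposited it was 91 of 419 and after centring 360 of 495.

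Among the 5 list genes, 1 passed without numbers 3 and 4, again chosen after the data were seen, namely PRK at 0.54 (limma adjusted p 0.012, and 0.012 to 1 over its 24 alternatives). Signs turned for NADP-MDH as deposited (-0.39), without numbers 3 and 4 (-0.15) and without numbers 5 and 6 (-0.023), for NTRC without numbers 5 and 6 (0.16) or ascorbate sample 1 (0.0040), and for SRX without numbers 1 and 2 (0.30), ascorbate sample 2 (0.18) or number 2 of both groups (0.18). With 1 sample left out, SRX ranged from -0.20 to 0.18 and NTRC from -0.21 to 0.0040. The causes were not tested. A value near the floor has no reliable log2 difference, which limits GLX2-1 and FTRB most.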
